A study of Mus musculus with 15 samples.

Results

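The thymocytes of an N-ras KO mouse were compared with those of a WT mouse through 58 genes that at least 2 probe sets placed on the same side of WT by 1.5-fold or more. They were chosen from 4958 genes with 2 or more probe sets, among 12394 genes named on the arrays. Of the 58, 26 were lower in N-ras KO, 31 were higher, and H2-D1 had probe sets of both kinds. Both mice were untreated 129/SJ animals, the N-ras KO mouse with a germline null allele and the WT mouse a littermate of either N-ras KO or H-ras KO animals, and each gave 1 Affymetrix array. A thymocyte array of an H-ras KO mouse, which is germline null for the related gene, was hybridized alongside. The series also holds 12 arrays of sorted splenic CD4+ T cells, 3 each from N-ras KO and WT mice kept overnight with 1 μg/ml of anti-CD3e and anti-CD28 antibodies, and 3 each from unstimulated N-ras KO and WT cells. The thymocyte mice were 6 weeks old, within the range of 6 to 20 weeks on the labels. With 1 array per genotype no thymocyte difference has a replicate check, so these are differences between 2 mice, and probe sets of 1 gene read the same RNA and are not replicates. In whole thymocytes, fewer cells of a type and less RNA per cell cannot be told apart.

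N-Ras is a small membrane-bound GTPase that passes signals from receptors, the T cell receptor among them, to the Raf, MEK and ERK kinases. In developing T cells this pathway takes part in the selection of thymocytes, and ERK activity switches on immediate early genes, which encode transcription factors and feedback regulators and need no new protein to be transcribed. Heat shock genes are driven by the factor HSF1, which binds heat shock elements when cells hold unfolded proteins.

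Among the genes furthest apart between both mice were 2 groups lower in N-ras KO, the heat shock proteins with Hspa1b and Hsph1, and the immediate early genes with Jun and Klf4. The promoter windows of RefSeq (GRCm38.p6) are shown here for the 3 heat shock members in which a heat shock element was found and for Jun, the immediate early member with the largest difference. Each runs from 250 bases before to 50 after an annotated start, and capitals mark matches to GAANNTTC or TTCNNGAA, 2 forms of the heat shock element that read the same on both strands.
Hspa1b, chr17:34959189-34959488, minus strand: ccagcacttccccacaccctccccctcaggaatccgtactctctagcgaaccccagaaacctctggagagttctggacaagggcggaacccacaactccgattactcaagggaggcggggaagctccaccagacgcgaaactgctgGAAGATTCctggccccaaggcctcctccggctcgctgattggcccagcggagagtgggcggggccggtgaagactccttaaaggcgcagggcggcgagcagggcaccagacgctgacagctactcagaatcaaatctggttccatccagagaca
Hsph1, chr5:149636287-149636586, minus strand: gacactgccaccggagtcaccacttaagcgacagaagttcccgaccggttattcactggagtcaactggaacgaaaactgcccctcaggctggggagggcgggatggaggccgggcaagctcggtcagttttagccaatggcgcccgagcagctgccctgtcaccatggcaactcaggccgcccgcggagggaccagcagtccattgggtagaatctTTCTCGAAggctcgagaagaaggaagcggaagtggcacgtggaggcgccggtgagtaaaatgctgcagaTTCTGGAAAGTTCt
Dnaja1, chr4:40722218-40722517, plus strand: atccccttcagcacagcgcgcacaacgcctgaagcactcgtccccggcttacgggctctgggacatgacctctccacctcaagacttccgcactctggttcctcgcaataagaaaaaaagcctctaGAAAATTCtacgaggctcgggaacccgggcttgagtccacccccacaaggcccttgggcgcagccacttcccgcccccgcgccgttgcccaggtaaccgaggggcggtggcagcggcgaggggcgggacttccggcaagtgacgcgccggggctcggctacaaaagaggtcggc
Jun, chr4:95052173-95052472, minus strand: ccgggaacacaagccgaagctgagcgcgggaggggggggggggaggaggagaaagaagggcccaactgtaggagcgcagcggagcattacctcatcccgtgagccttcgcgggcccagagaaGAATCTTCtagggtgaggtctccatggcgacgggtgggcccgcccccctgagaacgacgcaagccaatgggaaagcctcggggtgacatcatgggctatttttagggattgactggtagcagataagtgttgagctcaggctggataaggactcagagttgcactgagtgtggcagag
Of the 58 members 52 were matched to the promoter table by symbol, and Hsp90aa1, Hspa8, Siah2, St13, Ttc14 and Zfp36l2 were not. Either form of the element stood in a window of 3 of the 4 matched heat shock members, with Dnajb1 as the other one, in 5 of 22 matched lower members, H2-D1 counted with them, and in 5 of 30 matched higher members. Among all 27025 genes with a window, 17% had one. These genes have 32851 windows, and a gene with more windows has more ways to match, so the shares are not like for like. Dnaja1 has 3 windows and Hsph1 2, and only the first of each is shown. The other Dnaja1 windows hold no match, and the second of Hsph1 overlaps the first. In the Hsph1 window the last 2 matches overlap. The cyclic AMP response element TGACGTCA, searched in the same windows, was in 0 of the 52 and in 2.03% of all genes. A match is a run of letters and not a measured binding site.

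The deposited values are log2 expression values from which the median of the 3 thymocyte arrays has been subtracted on each probe set. One array therefore reads 0 on every probe set, and the values hold differences between mice without any level of expression. Differences are given as N-ras KO minus WT, the opposite sign to that used in the paper, and membership does not depend on the sign. The rule was met by 27 of 4958 genes (0.545%) on the lower side and by 32 (0.645%) on the higher side, H2-D1 being in both counts. These shares come from the contrast that chose the members and say nothing further about them. Over all genes, 182 (1.47%) had any probe set lower by 1.5-fold and 240 (1.94%) any higher. Of the 193 probe sets of the 58 members, 132 passed the threshold, 60 lower and 72 higher, and 24 lay within 0.1 log2 of 0.

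Thymocyte markers were close on both arrays. Over 16 probe sets of 11 markers, among them the co-receptor genes Cd4 and Cd8a, the recombinase genes Rag1 and Rag2 and the CD3 chains, the difference ran between -0.22 and 0.38 log2, and 0 passed 1.5-fold. The bacterial and phage control probe sets of the array were higher in N-ras KO on 42 of 45, by a median of 0.17 log2. The gap between the 3' and 5' probe sets of the transferrin receptor control was 0.21 log2 larger in N-ras KO than in WT, that of beta-actin 0.11 log2 larger, and that of Gapdh differed by -0.05 log2. Among markers of other cells, 10 of 20 neutrophil granule genes were lower in N-ras KO by 1.5-fold and 0 were higher, with a median per gene of 0.00 log2 in N-ras KO, -0.30 in H-ras KO and 0.47 in WT. Ngp, Lcn2 and S100a9, with 1 probe set each and so outside the 58, differed by -1.72, -1.64 and -1.62 log2. Of 19 B cell genes 3 (15.8%) had a probe set higher and 0 lower in N-ras KO, with a list median of 0.04 log2. In the eosinophil, basophil and mast cell list 2 of 14 genes (14.3%) were lower and 0 higher, Prg2 at -2.58 log2 and Epx at -0.62. H-ras KO minus WT was -2.89 log2 in Prg2 and -0.72 in Epx. The part of these other cells and of RNA quality in the differences that follow was not tested.

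**Figure D1:**
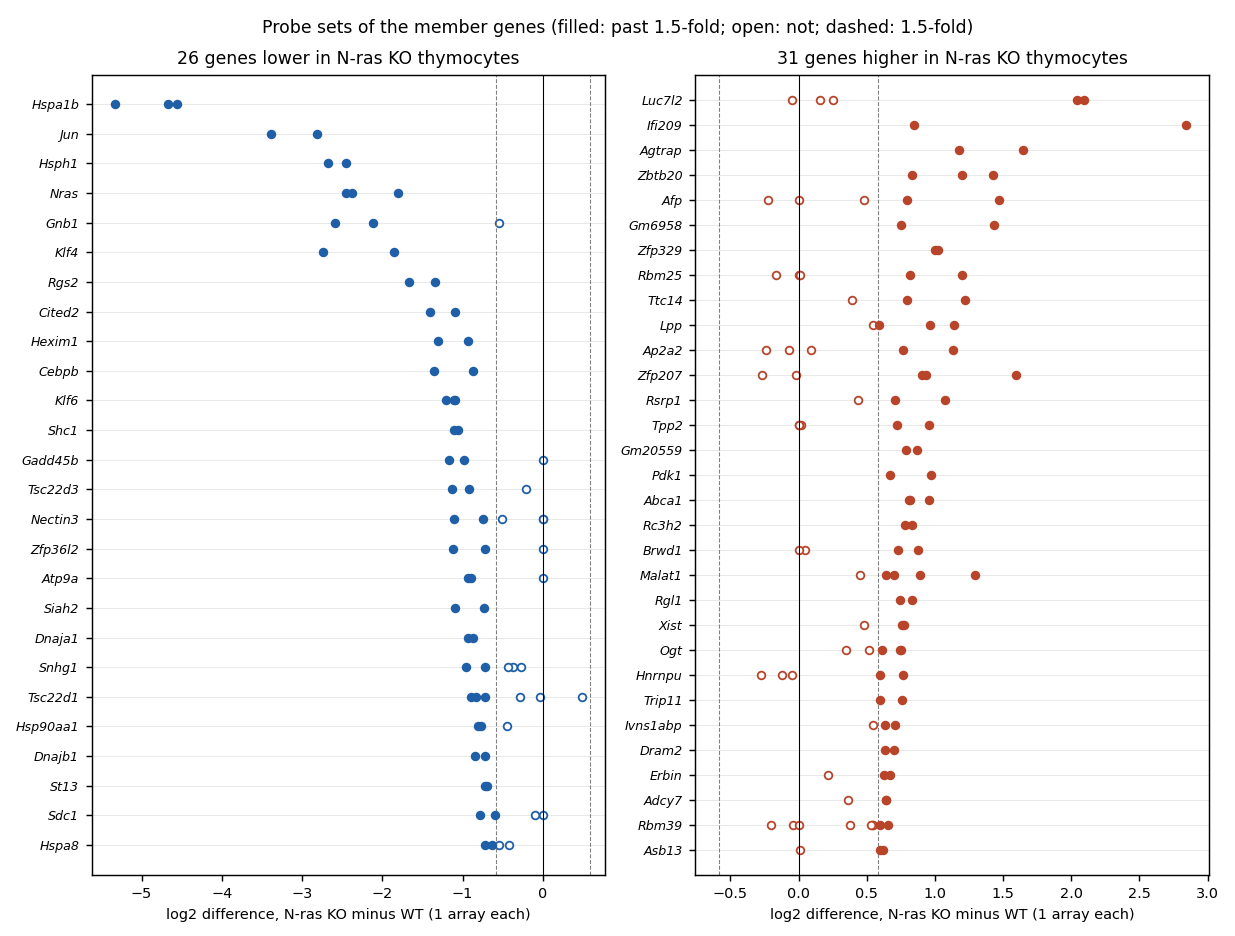
Log2 difference between the N-ras KO and the WT thymocyte array (horizontal axis) for every probe set of the 26 lower and the 31 higher genes, 1 gene per row, with filled points past 1.5-fold and open points not. Hspa1b, at the top of the lower genes, lies between -5.33 and -4.56, and among the higher genes Luc7l2 has 2 probe sets past 2.0 and 3 below 0.3.

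Nras itself was low in its own knockout. Its 3 probe sets read -1.81, -2.44 and -2.38 log2 in N-ras KO, 0.16, 0.00 and 0.28 in H-ras KO, and 0.00, 0.02 and 0.00 in WT. The N-ras KO array was alone at the low end and the other two stood within 0.3 log2 of each other. The differences of -1.81, -2.46 and -2.38 log2 are 3.5-, 5.49- and 5.21-fold. The position of these probe sets relative to the deletion was not analysed here. Of the other 13 measured Ras GTPases none had a probe set past 1.5-fold. Among 16 Ras exchange factors and GTPase-activating proteins 1 did, Rasgrp1, with 1 of 3 probe sets at 0.61 log2. That is 6.25% of this list with a probe set higher, against 1.94% of all genes.

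The heat shock list gave 7 of the 26 lower members and none of the higher ones. Hspa1b, the stress-inducible Hsp70 chaperone, read -1.36, -2.01 and -1.39 log2 in N-ras KO, 0.00 on all 3 probe sets in H-ras KO, and 3.20, 3.33 and 3.29 in WT. The WT array was far above both knockouts, and N-ras KO was lower than WT by 4.56, 5.33 and 4.68 log2, with a median of 25.6-fold. Hspa1a, a near-identical copy of it with 1 probe set, differed by -4.04 log2, and signal of the 2 genes cannot be fully separated. Hsph1, an Hsp110 chaperone that exchanges nucleotide on Hsp70, read -1.2 and -1.09 log2 in N-ras KO, 0.00 on both in H-ras KO, and 1.47 and 1.37 in WT, a median of 5.91-fold lower in N-ras KO.

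The Hsp40 co-chaperones Dnaja1 and Dnajb1, which hand clients to Hsp70, differed less. Dnaja1 read -0.40 and -0.34 log2 in N-ras KO, 0.00 on both in H-ras KO and 0.47 and 0.60 in WT. Dnajb1 read -0.20 and -0.34 log2 in N-ras KO, 0.00 on both in H-ras KO and 0.52 and 0.51 in WT. Hsp90aa1, the inducible form of Hsp90, was lower by 0.77 and 0.81 log2 on 2 probe sets and by 0.44 on the third. Hspa8, the constitutive member of the Hsp70 family, was lower by 0.72 and 0.63 log2 on 2 of 4 probe sets, and the others, at -0.43 and -0.55, lay on the same side under the threshold. St13, which binds Hsp70 and slows its release of clients, was lower by 0.73 and 0.70 log2. On every probe set of these 7 genes the order was the same, with N-ras KO lowest, H-ras KO at 0 and WT highest.

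Among all 47 measured genes of the heat shock list, 16 (34.0%) had a probe set lower by 1.5-fold and 0 had one higher. Over all genes the shares were 1.47% and 1.94%. Outside the members these were Hspa1a, Hspa4, Hspd1, Dnajb4, Dnajb9, Stip1, Ahsa1, Chordc1 and Fkbp4, from -4.04 log2 in Hspa1a to -0.59 in Hspd1. The median over the 47 genes was -0.23 log2, and over all 12394 genes 0.00. This list, like the other gene lists used here, was chosen with results of these arrays known.

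**Figure D2:**
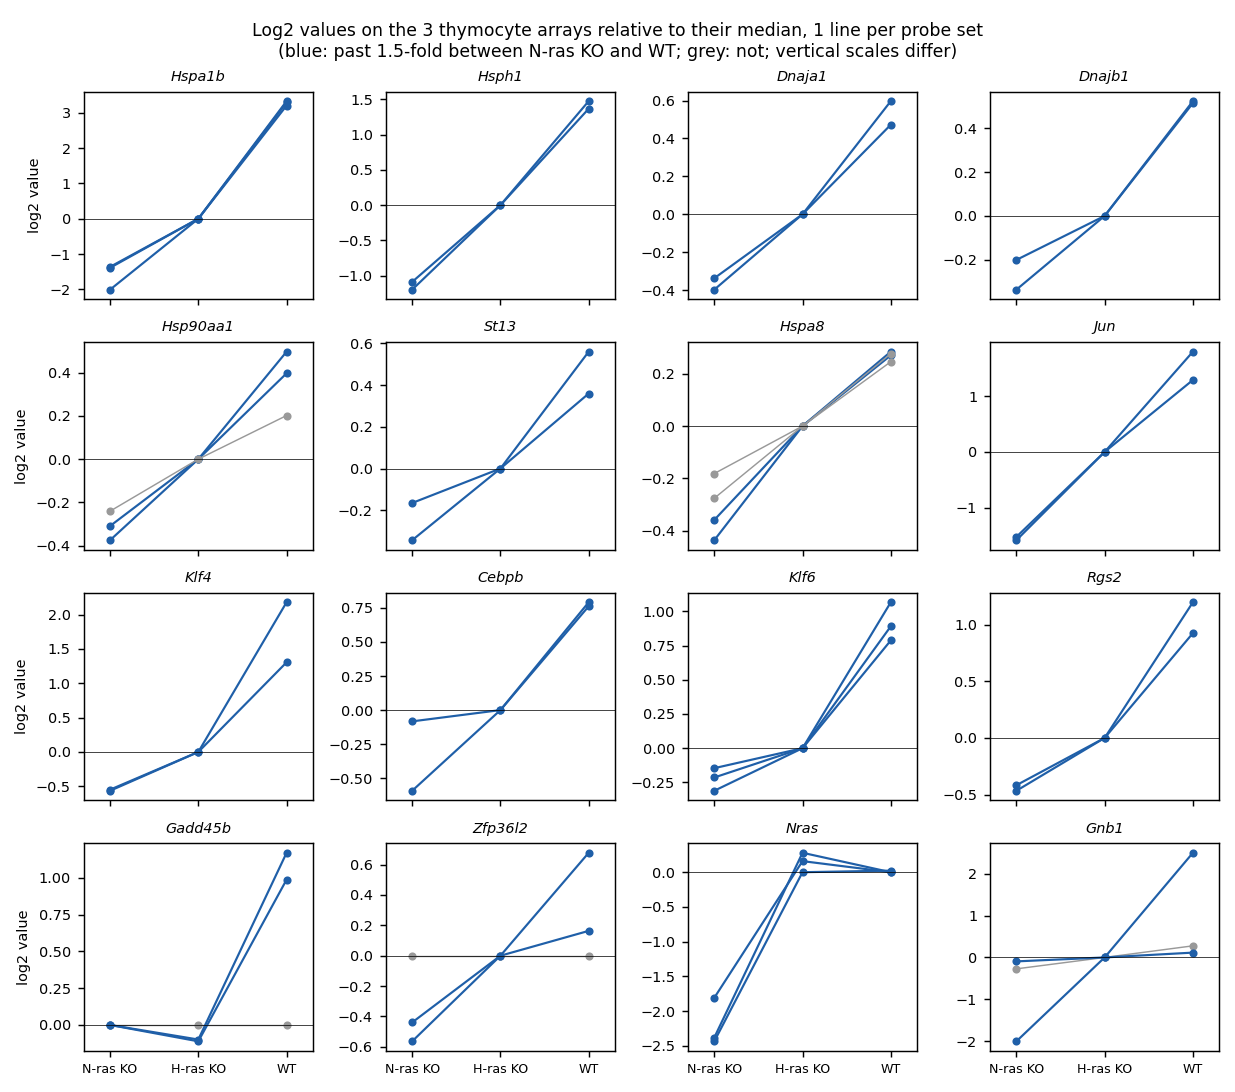
Log2 values relative to the median of the 3 arrays (vertical axis, a scale of its own in each panel) on the thymocyte arrays of the N-ras KO, the H-ras KO and the WT mouse for 16 of the lower genes, 1 line per probe set, blue where past 1.5-fold between N-ras KO and WT and grey where not. For the 7 heat shock genes the lines climb through 0 in H-ras KO to a maximum in WT, while Nras is low in N-ras KO alone and near 0 in the other arrays.

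The immediate early transcription factors gave 4 lower members and no higher one. Jun, a subunit of the AP-1 factor, read -1.59 and -1.53 log2 in N-ras KO, 0.00 on both probe sets in H-ras KO, and 1.80 and 1.29 in WT, a median of 8.60-fold lower in N-ras KO. Klf4, a zinc finger factor linked to quiescence, read -0.56 and -0.55 log2 in N-ras KO, 0.00 on both in H-ras KO, and 2.18 and 1.3 in WT, a median of 4.92-fold lower. On all 4 of these probe sets N-ras KO was the lowest array and WT the highest. Klf6, a related zinc finger factor, was lower by 1.10, 1.21 and 1.10 log2 on all 3 probe sets. Cebpb, a factor of inflammatory and myeloid gene expression, was lower by 1.35 and 0.87 log2. In Klf6 H-ras KO minus WT was -0.79, -1.07 and -0.89 log2, and in Cebpb -0.76 and -0.79.

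Of the 30 measured genes of this list 12 (40%) had a probe set lower by 1.5-fold and 0 had one higher. Over all genes the shares were 1.47% lower and 1.94% higher. The list median was -0.19 log2, and that of H-ras KO minus WT was -0.38. The 8 that are not members have 1 probe set each except Nr4a2, with 1 of 2 past the threshold. Fos, the partner of Jun in AP-1, differed by -3.54 log2, Fosb by -2.31 and Junb by -1.87. H-ras KO was below WT on these as well, at -1.625, -1.75 and -1.65 log2. The Nr4a orphan receptors, which respond to T cell receptor signals, differed by -0.67 log2 in Nr4a1 and -1.12 in Nr4a2. H-ras KO minus WT was -1.14 log2 in Nr4a1 and -1.12 in Nr4a2.

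Genes of the signal feedback list were also among the lower members. Rgs2, which speeds the shut-off of G protein alpha subunits, read -0.47 and -0.42 log2 in N-ras KO, 0.00 on both probe sets in H-ras KO, and 1.2 and 0.93 in WT. Gadd45b, a stress protein that binds upstream kinases of the p38 and JNK pathways, read 0.00 on both of its 2 probe sets past the threshold in N-ras KO, -0.11 and -0.10 in H-ras KO, and 0.99 and 1.17 in WT, so that both knockouts lay together and below WT. Its other probe set read 0.00 on all 3 arrays. Zfp36l2, which binds AU-rich RNA and promotes its decay, was lower by 0.73 and 1.12 log2 on 2 of 3 probe sets. On these H-ras KO minus WT was -0.16 and -0.68 log2. Of the 30 measured feedback genes 15 (50%) had a probe set lower and 0 higher, against 1.47% and 1.94% of all genes. Their median was -0.56 log2, and that of H-ras KO minus WT was -0.49. The phosphatase gene Dusp1, at -2.36 log2, and Rgs1, at -1.94, were the furthest of those outside the members. H-ras KO minus WT was -1.69 log2 in Dusp1 and -1.16 in Rgs1.

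The remaining lower members have other roles. Gnb1, a G protein beta subunit, showed probe sets that did not move alike. One read -0.09 log2 in N-ras KO, 0.00 in H-ras KO and 2.50 in WT, another -2.0 in N-ras KO, 0.00 in H-ras KO and 0.12 in WT, and the third differed by -0.55 log2. The first is thus high in WT and the second low in N-ras KO. Cited2, which binds the co-activators CBP and p300, was lower by 1.41 and 1.10 log2. Hexim1, an inhibitor of the elongation kinase P-TEFb, was lower by 1.3 and 0.93 log2. Tsc22d3, known as GILZ and induced by glucocorticoids, was lower by 0.92 and 1.13 log2 on 2 of 3 probe sets. On the same probe sets H-ras KO minus WT was -1.34 and -1.18 log2 in Cited2, -0.79 and -1.03 in Hexim1, and -0.51 and -0.61 in Tsc22d3. Of the 19 measured glucocorticoid-responsive genes 5 (26.3%) had a probe set lower and 1 (5.26%), Ddit4, higher, against 1.47% and 1.94% of all genes. Of the 5, Per1, Sgk1, Dusp1 and Gadd45a also stand on the feedback list, and the other is Tsc22d3.

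Shc1, an adaptor that couples receptors to Grb2 and thereby to Ras, read -0.80 and -1.04 log2 in N-ras KO, 0.00 on both in H-ras KO, and 0.26 and 0.07 in WT. Here the N-ras KO array was the one apart. Tsc22d1, a relative of Tsc22d3, was also low in N-ras KO alone, at -0.89, -0.83 and -0.73 log2 against 0.00 in WT on 3 of 6 probe sets, while another of its probe sets was higher in N-ras KO by 0.49. Siah2, a ubiquitin ligase, was lower by 0.73 and 1.09 log2. Atp9a, a P4-type membrane ATPase, Nectin3, an adhesion molecule, the proteoglycan gene Sdc1 and Snhg1, a host gene of small nucleolar RNAs, completed the group with medians between -0.69 and -0.93 log2, and each also had probe sets under the threshold.

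The higher members differed less. Their median differences ran from 0.61 to 2.07 log2, and 9 of 31 reached 2-fold, against medians of 0.67 to 4.68 log2 in size and 14 of 26 among the lower members. Every probe set passed the threshold in 12 of the 31 higher and in 15 of the 26 lower members. On 35 of the 69 probe sets of higher members past the threshold (50.7%) the WT array stood furthest from 0, and on 34 the N-ras KO array. Among the lower members WT was the furthest on 41 of 56 (73.2%) and N-ras KO on 15. Over all probe sets with 1 gene that passed 1.5-fold, WT was the furthest on 58.6% of the higher and 71.6% of the lower ones.

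RNA-binding proteins and nuclear RNAs were the group with the most higher members, 6 of 31, and none of the lower members. Luc7l2, a protein of the U1 splicing particle, read 0.46 and 0.35 log2 in N-ras KO, 0.00 on both in H-ras KO, and -1.63 and -1.69 in WT. The WT array was low on these 2 probe sets, and the other 3 probe sets of the gene differed by 0.16, -0.05 and 0.25 log2. Rbm25, a splicing regulator, showed the same division, with 1.2 and 0.82 log2 on 2 probe sets and -0.17, 0.00 and 0.01 on 3. Zfp207, which acts at the spindle and in splicing, was higher by 0.93, 1.59 and 0.91 log2 on 3 probe sets and at -0.27 and -0.02 on 2. Hnrnpu, a nuclear matrix and RNA-binding protein, was higher by 0.77 and 0.60 log2 on 2 probe sets and at -0.12, -0.05 and -0.28 on 3, and Rbm39, a splicing co-activator, passed on 2 of 9 probe sets, at 0.60 and 0.65 log2.

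Malat1, an abundant nuclear long non-coding RNA found at splicing speckles, was the member of this group with least division. It was higher by 0.89, 1.29, 0.64 and 0.70 log2 on 4 probe sets and by 0.45 on the fifth. Neat1, the RNA scaffold of paraspeckles, has 1 probe set, at 1.23 log2. Of the 48 measured genes of the list 12 (25%) had a probe set higher and 0 had one lower, against 1.94% and 1.47% of all genes. The median over the 48 was 0.01 log2. These shares are not like for like, because a gene with more probe sets has more ways to pass. In the list 38 of 48 genes had 2 or more probe sets, against 4958 of all 12394. Probe sets near 0 beside others past the threshold were found in 10 of the 31 higher and 6 of the 26 lower members. Probe sets of 1 gene can read different transcripts, such as retained introns or other 3' ends, and their positions were not used here.

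**Figure D3:**
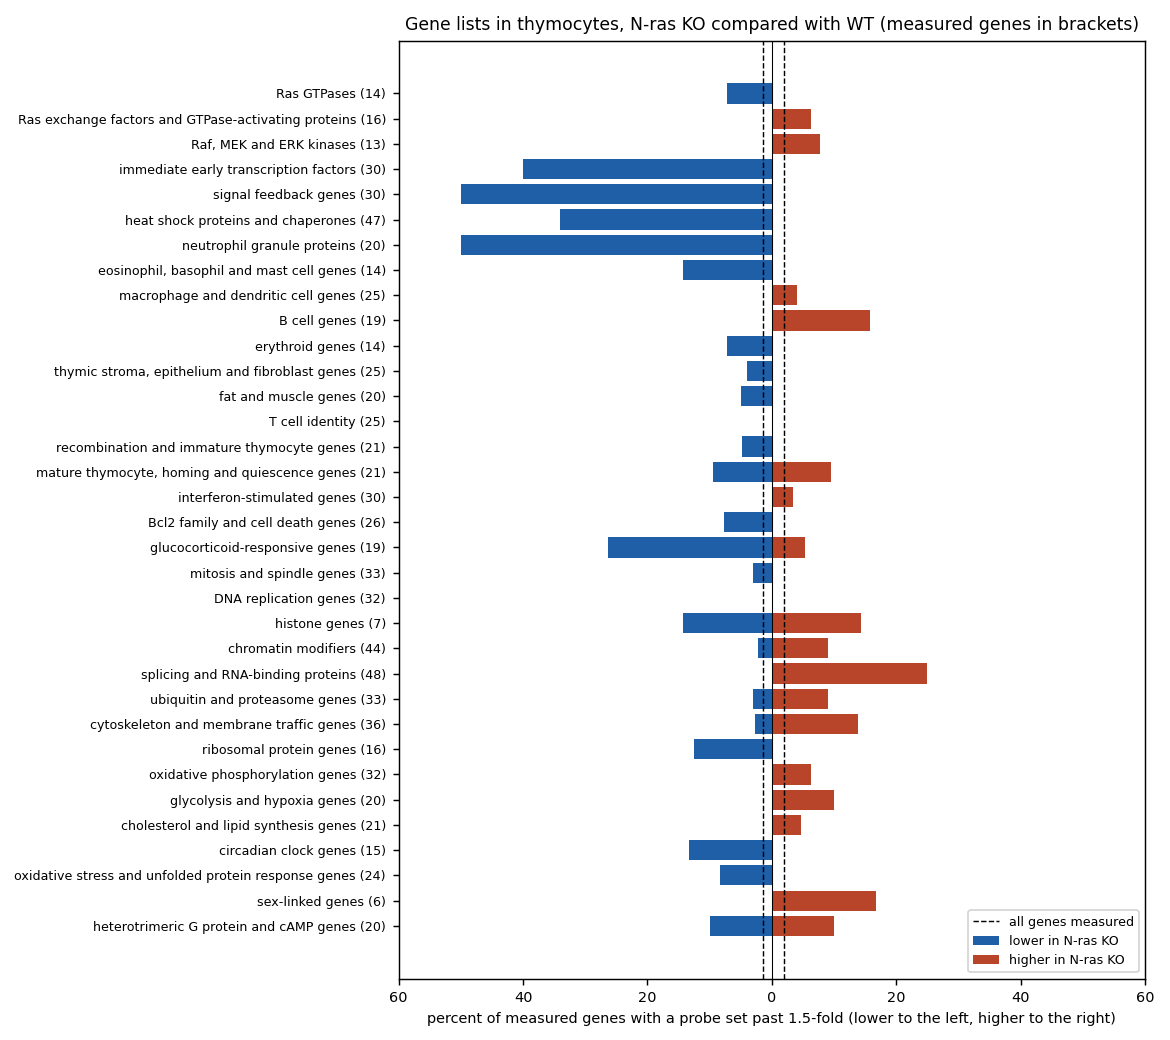
Percent of the measured genes of each list (number in brackets) with a probe set past 1.5-fold between the N-ras KO and the WT thymocyte array, lower in N-ras KO to the left and higher to the right, with dashed lines at 1.47% and 1.94% for all genes. The long bars to the left are the immediate early, feedback, heat shock and neutrophil lists, the longest bar to the right is the splicing list, and T cell identity and DNA replication have none. Lists differ in probe sets per gene, which the dashed lines do not take into account.

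Other higher members act in signaling and gene control. Agtrap, which binds the type 1 angiotensin receptor, read 1.65 and 1.18 log2 in N-ras KO, -0.15 and -0.04 in H-ras KO, and 0.00 on both in WT. It was high in N-ras KO alone. Rgl1, an effector of Ras that exchanges nucleotide on Ral, was higher by 0.74 and 0.84 log2, with values of 0.74 and 0.53 in N-ras KO, 0.00 on both in H-ras KO, and 0.00 and -0.30 in WT. Erbin, a scaffold of the ErbB2 receptor, was higher by 0.63 and 0.67 log2 on 2 of 3 probe sets, and Adcy7, an adenylyl cyclase of blood cells, by 0.64 on 2 of 3. Zbtb20, a transcriptional repressor, read 0.35, 0.05 and 0.00 log2 in N-ras KO, 0.00, 0.00 and 0.02 in H-ras KO, and -1.08, -1.15 and -0.84 in WT. There the WT array was the low one and both knockouts lay together.

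Ifi209, an interferon-inducible gene of a family of close copies, was higher by 2.84 and 0.85 log2. On the first probe set N-ras KO read 0.00, H-ras KO 0.21 and WT -2.84, so that the WT array was the one apart. It was the only one of 30 measured interferon-stimulated genes with a probe set past the threshold. That is 3.33% with one higher, against 1.94% of all genes. Abca1, which exports cholesterol, was higher by 0.81, 0.96 and 0.82 log2, Pdk1, a kinase that restrains pyruvate dehydrogenase, by 0.97 and 0.67, and Rc3h2, a Roquin protein that destabilizes RNA, by 0.78 and 0.83. Ogt, which attaches N-acetylglucosamine to proteins, passed on 3 of 5 probe sets at 0.61 to 0.75 log2, Brwd1, a chromatin reader of lymphocyte development, on 2 of 4 at 0.73 and 0.88, and Lpp, an adhesion site protein, on 3 of 4 at 0.59 to 1.14. Tpp2, a large cytosolic peptidase, was higher by 0.72 and 0.95 log2 on 2 probe sets and at 0.00 to 0.02 on 3. Afp, the fetal serum protein alpha-fetoprotein, was higher by 1.47 and 0.79 log2 on 2 of 5 probe sets and at -0.23 on another. Ap2a2, a clathrin adaptor subunit, was higher by 1.13 and 0.76 log2 on 2 probe sets and at 0.09, -0.24 and -0.07 on 3.

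Xist, the RNA that silences 1 X chromosome in female cells, was higher by 0.77 and 0.76 log2 on 2 probe sets and by 0.48 on the third. It read 0.41, 0.00 and 0.11 log2 in N-ras KO, 0.00, 0.02 and 0.00 in H-ras KO, and -0.36, -0.76 and -0.37 in WT. The Y-linked genes Eif2s3y, Kdm5d and Uty differed by at most 0.05 log2 between N-ras KO and WT. The remaining higher members were the zinc finger gene Zfp329, the Golgi tether gene Trip11, the lysosomal membrane gene Dram2, the ubiquitin ligase adaptor gene Asb13, Ivns1abp, Rsrp1, Ttc14, Gm6958 and Gm20559, with medians between 0.61 log2 in Asb13 and 1.09 in Gm6958.

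H2-D1, a class I MHC heavy chain, was placed in both directions. On 3 of its 9 probe sets the values were 4.49, 4.67 and 4.88 log2 in N-ras KO, -0.09, -0.20 and -0.46 in H-ras KO, and 0.00 in WT. Another 4 were lower in N-ras KO by 1.11 to 1.27 log2, with WT as the high array, and the last 2 differed by -0.31 and -0.07. Of its 7 probe sets past the threshold 6 are of the type that can also bind near-identical sequences, and class I genes are a family of such sequences, so that the gene behind each signal is uncertain. Zfp991 also had probe sets both ways, 1 at 2.25 log2 and 1 at -0.73, and was not a member.

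The genes next to the threshold of 0.585 log2, which is 1.5-fold, differed little from each other. By their second largest difference, Rbm39 at 0.597 log2, Hnrnpu at 0.597 and Trip11 at 0.600 were just inside, all higher in N-ras KO. Nfat5 at 0.584 log2, Crebrf at 0.577 and Brd8 at 0.574, also higher, were just outside.

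Several groups had no member. Of 25 measured T cell identity genes and of 32 DNA replication genes 0 had a probe set past 1.5-fold in either direction. Of 33 mitosis and spindle genes 1 (3.03%) did, Kif2c at -0.61 log2, with a list median of -0.23. Among the Raf, MEK and ERK kinases 1 of 13 (7.69%) did, Mapk8 at 0.87 log2 on 1 of 3 probe sets. Of all genes 1.47% had a probe set lower and 1.94% one higher.

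The same 132 probe sets were also measured in CD4+ T cells, in samples that the rule did not use. These values are set to 0 at the median of the unstimulated arrays of each genotype, so that unstimulated N-ras KO and WT cells cannot be compared, and a difference between stimulated N-ras KO and WT cells is one of values relative to the cells' own unstimulated arrays. Nras went against the labels in both replicates where it stood apart from its own genotype. On its 3 probe sets it read 1.70, 1.21 and 2.04 log2 in unstimulated N-ras KO replicate 3, the highest of the N-ras KO arrays, and -1.61, -1.23 and -2.68 in unstimulated WT replicate 1, the lowest of the WT arrays. Counts are given with and without the 4 arrays of these replicates. In stimulated cells 0 of 132 probe sets differed between N-ras KO and WT at an adjusted p of 0.05 (limma over 45101 probe sets, of which 0 passed). At an unadjusted p of 0.05 and 1.5-fold 9 did, 5 lower and 4 higher in N-ras KO, or 6.82% against 6.90% of all probe sets. Without the doubted arrays 14 did, 10.6% against 7.24%. With all arrays the members thus passed at a share near that of all probe sets. The p-values and standard errors of this comparison take the unstimulated baseline of each genotype as fixed. In the difference between the responses of both genotypes, which takes in the spread of the unstimulated arrays, fewer passed. There 1 of 132 had an unadjusted limma p under 0.05 with 1.5-fold (0.758%, against 1.29% of all probe sets), and 0 passed the adjusted threshold. Stimulated arrays of both genotypes did not overlap on 19 of the 132 (14.4%), against 13.7% of all probe sets.

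The smallest p among the members belonged to a probe set of Siah2. It read -0.23, -0.55 and -0.75 log2 in stimulated N-ras KO cells and 1.49, 1.16 and 0.93 in stimulated WT cells, without overlap. The difference was -1.70 log2 (standard error 0.34, adjusted p = 0.389 with limma), and -1.43 without the doubted arrays. The second Siah2 probe set differed by -0.25 log2 (standard error 0.66). Agtrap, higher in N-ras KO thymocytes, was lower in stimulated N-ras KO CD4+ T cells on 1 of its 2 probe sets, with -0.59, -0.40 and -1.0 log2 in N-ras KO cells and 0.24, 1.39 and 1.25 in WT cells (difference -1.62, standard error 0.42, adjusted p = 0.521).

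Tpp2 had 2 probe sets at p under 0.05, which differed by 0.87 and 0.79 log2 (standard errors 0.27 and 0.30, adjusted p = 0.562 and 0.607). The first read -0.05, 0.17 and 0.49 log2 in N-ras KO cells and -0.51, -0.59 and -0.90 in WT cells. Ttc14 differed by 0.61 log2 (standard error 0.20, adjusted p = 0.572) on 1 of 2 probe sets and by 0.70 (standard error 0.41) on the other. Klf4, lower in N-ras KO thymocytes, was on 1 of its 2 probe sets at 0.54, 0.64 and 0.82 log2 in N-ras KO cells and -0.33, 0.06 and -0.65 in WT cells, a difference of 0.98 log2 (standard error 0.35, adjusted p = 0.585) whose unadjusted p was 0.129 without the doubted arrays. Its other probe set differed by -0.68 log2 (standard error 0.86). Gm6958 and Shc1 complete the 9. Gm6958, higher in N-ras KO thymocytes, was lower in stimulated N-ras KO cells on 2 probe sets, at -3.57 and -1.24 log2. Shc1, lower in N-ras KO thymocytes, was also lower here on 1 of 2 probe sets, at -0.82 log2. None of these differences passed the adjusted threshold.

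**Figure D4:**
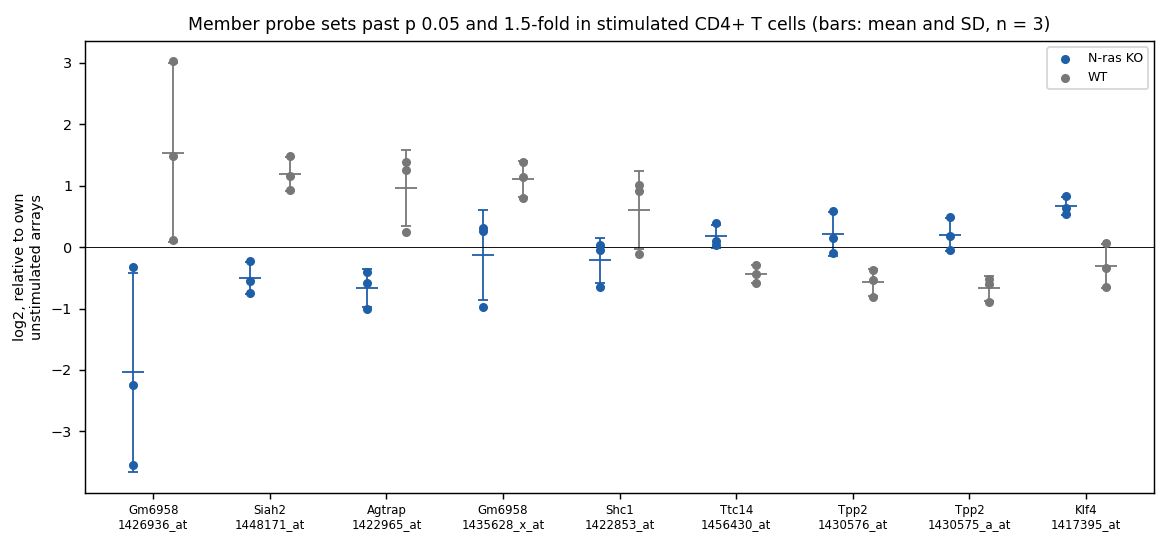
Log2 values relative to each genotype's unstimulated arrays (vertical axis) in stimulated N-ras KO and WT CD4+ T cells for the 9 probe sets of members at p under 0.05 and 1.5-fold, with points for the 3 arrays, a bar at the mean and whiskers of 1 SD. Siah2 lies between -0.75 and -0.23 in N-ras KO and between 0.93 and 1.49 in WT, and the Shc1 values of both genotypes overlap.

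Few member probe sets passed for the response to stimulation, stimulated minus unstimulated. In N-ras KO cells 0 of 132 passed p under 0.05 with 1.5-fold, against 2.34% of all probe sets, and in WT cells 1 did, the Siah2 probe set at 1.03 log2 (standard error 0.34, adjusted p = 1), against 1.04%. None of the 45101 probe sets passed the adjusted threshold in either response. Stimulated and unstimulated arrays of 1 number deviated together within each genotype. With the replicate number as a block within genotype, 4 probe sets passed in N-ras KO cells, 3 of Tsc22d1 and 1 of Atp9a, all lower after stimulation, against 4.91% of all. In WT cells 6 passed with this block, 2 of Gadd45b and 1 each of Siah2, Gm6958, Klf6 and Ifi209, against 2.80% of all. Gadd45b was higher after stimulation by 0.83 and 1.01 log2 and Klf6 lower by 0.71. Without the doubted arrays 1 passed in N-ras KO cells (0.758%, against 3.11% of all) and 6 in WT cells (4.55%, against 1.65% of all).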

How the data were processed

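RNA of thymocytes (3 mice, 1 array each) and of CD4+ T cells (12 arrays, 3 per group) was hybridized to Affymetrix arrays. The authors deposited log2 expression values made with RMA-16 in GeneSpring GX11, which included quantile normalization and a baseline on each probe set, and the submitters' processing notes name RMA without a version. That baseline is described as one of control samples, but the values have it at the median of all 3 thymocyte arrays and, in CD4+ T cells, at that of each genotype's unstimulated arrays. The methods name the Mouse Genome 430A 2.0 array for all samples, while the values cover 22690 probe sets in thymocytes and 45101 in CD4+ T cells. The number of arrays limits the precision. Labels give the groups, and 0 columns of per-sample values were left unused.

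Names of probe sets came from the platform annotation of GEO, in which 20393 had 1 gene, 691 several and 1606 none, and only those with 1 gene were used. Gene IDs of 20364 were found in a RefSeq table (GRCm38.p6), which changed 0 symbols. Probe sets whose gene ID it lacks kept the symbol of the platform annotation and stayed in the analysis. Members were genes with at least 2 probe sets past 1.5-fold in 1 direction, N-ras KO minus WT. Members and gene lists were chosen with earlier results of these data known. Genes named in the text were Nras, the 15 members per direction with the largest median difference, members of a list or named in the paper, those next to the threshold, and those with the smallest p in CD4+ T cells. The remaining members are named for completeness.

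Thymocytes were compared by fold alone. CD4+ T cells were tested with limma 3.58.1 (R 4.3.3) in 1 two-sided fit by lmFit and eBayes over the 4 groups, with Benjamini-Hochberg adjustment over 45101 probe sets, tested on simulated data. The submitted CD4+ T-cell samples came from a different mouse in each repetition, so p-values measure the spread between these arrays. Same-number stimulated and unstimulated arrays deviated together within a genotype, with correlations of 0.361 to 0.626 in N-ras KO and 0.447 to 0.738 in WT, and the labels name no shared mouse. The methods describe both a division of sorted cells into a stimulated and an unstimulated part and a mouse for each condition, so whether same-number arrays share a mouse is not settled. Across genotypes the correlations were -0.621 to -0.117. Alternatives were other fold thresholds, centring, quantile normalization, fewer probe sets, the methods' t-test, a fit of 2 groups, blocks and leaving out arrays. The block within genotype and the removal of the 4 arrays whose Nras value went against the label were chosen after seeing the data.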

Additional observations from a re-analysis of the deposited data

How the results depend on the processing

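The number of members depended on the fold threshold: 11 genes were lower and 4 higher in N-ras KO at 2-fold, and 74 and 85 at 1.3-fold, against 27 and 32 at 1.5-fold. With every probe set of a gene required, 15 were lower and 12 higher. Centring of the arrays kept all 27 and 32, quantile normalization kept 26 and 31 of them, leaving out cross-hybridizing probe sets kept 21 and 22, and the annotation's own symbols changed none. The median over all probe sets of a gene reversed 2 named differences, Hnrnpu at -0.049 log2 and the higher probe sets of H2-D1 at -0.31 log2, and put 12 others under the threshold. Quantile normalization put 1 under it.

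In stimulated CD4+ T cells the count of 9 member probe sets ran from 8 to 13 with each array left out, against 5.40% to 8.56% of all probe sets, and was 14 (10.6%, against 7.24% of all) without the 4 arrays whose Nras value went against the label. The replicate block across genotypes gave 11 (8.33%, against 6.58% of all), quantile normalization 6 (4.55%, against 4.22%), the fit of 2 groups 8 (6.06%, against 6.77%) and the methods' t-test 7 of 132 (5.30%, against 4.08%), with 0 after Benjamini-Hochberg adjustment in each. For the responses, the replicate block gave 2 in N-ras KO and 1 in WT cells, against 2.48% and 1.05% of all probe sets, and the block within genotype 4 and 6, against 4.91% and 2.80%. Leaving out single arrays gave 0 to 2 in N-ras KO cells (at most 1.52%, against 2.08% to 3.52% of all). In WT cells it gave 1 to 3 (0.758% to 2.27%, against 0.978% to 1.70% of all). Leaving out the arrays against the label gave 1 and 6 (0.758% and 4.55%, against 3.11% and 1.65% of all). The count in N-ras KO cells was above 0 without stimulated N-ras KO replicate 1, 2 or 3, and that in WT cells above 1 without stimulated N-ras KO replicate 1 or 3, stimulated WT replicate 1 or 3 or unstimulated WT replicate 1. The cause was not tested. A group left with fewer arrays is assumed to vary like the others.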
